A study of Mus musculus with 32 samples.

Results

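Hsd3b5 and Hsd17b6 were 2 of 10 steroid-converting enzymes of the liver followed here in male C57BL/6J mice fed a high-fat or a standard diet with or without disulfiram (DSF), an inhibitor of aldehyde dehydrogenases given to people in the treatment of alcohol dependence. The 10 genes (Hsd3b5, Hsd3b2, Hsd3b3, Hsd3b7, Hsd17b2, Hsd17b6, Hsd17b11, Hsd17b13, Hsd11b1 and Srd5a1) were taken by name from the probe annotation. Of these, 7 had a probe, with 18 probes in all, and all 7 were among 9972 genes detected and tested. Hsd3b3, Hsd17b13 and Srd5a1 were not analysed here. Hsd3b5 was chosen for its values in the comparisons of HFD with SD and of DSF-fed HFD mice with HFD mice, and Hsd17b6 for its values in DSF-fed SD mice against SD mice, so those values are given as descriptions with no test.

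Liver RNA was hybridised to Illumina bead arrays from 5 mice in each of 6 groups. HFD mice ate a diet with 61% of its energy as fat and no DSF. HFDL mice ate the same diet with DSF at 100 mg/kg/day (2.33 g per kg of food), and HFDH mice with 200 mg/kg/day (2.67 g per kg of food). SD mice ate a standard diet with 17% of its energy as fat and no DSF, SDL mice the standard diet with DSF at 100 mg/kg/day (1 g per kg of food), and SDH mice with 200 mg/kg/day (2 g per kg of food). All mice were 56 weeks old by the labels and had been on their diet for 40 to 41 weeks. The dose in mg/kg/day is the labels' nominal dose, and the DSF content of the food differed between the diets at the same nominal dose.

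Steroid dehydrogenases move hydrogen on and off the ring positions of steroids and so switch a hormone between an active and a less active form. The 3-beta family acts at carbon 3, the 17-beta family at carbon 17 and the 11-beta family at carbon 11. The liver carries a large share of the body's steroid breakdown, and several of these enzymes are also part of bile acid, retinoid or lipid droplet metabolism. In mice, Hsd3b5 is a reductase of the 3-beta family found mainly in adult male liver, where it inactivates dihydrotestosterone, and it is a classic example of a gene whose level follows the male pattern of growth hormone release. Hsd17b6 is a short-chain dehydrogenase close to the retinol dehydrogenases that oxidises androgens such as androstanediol.

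On the 29 arrays used, from 27 mice, 43.8% to 52.7% of probes were detected (detection p under 0.05), the SD of log2 intensity was 1.78 to 1.99 and the median intensity 57 to 77. The 3 arrays of SDH replicate 16, HFDL replicate 10 and HFDH replicate 16 had 6.56% to 27.2% of probes detected and were left out, which left 5 HFD, 4 HFDL, 4 HFDH, 5 SD, 5 SDL and 4 SDH mice. Of 10 hepatocyte markers, 8 to 9 were detected in every mouse. Markers of pancreatic acinar cells stood apart in SDH replicate 17 (mean level 5.31), SD replicate 2 (2.59), with SD replicate 4 (0.39), SDL replicate 7 (0.15) and SDL replicate 9 (-0.15) next, against at most -0.19 in every other mouse. Of 7 genes that define adrenal or gonadal steroid-making cells, 0 to 2 were detected in any mouse. Values are given on 2 scales, of which intensity is the array's linear signal and a level is its log2 after each array was centred and scaled, so that a level of 0 is the array's mean over all probes. These are bulk livers, in which fewer cells of a type and less RNA per cell cannot be told apart. The labels do not say whether mice of a group shared a cage or a day of preparation.

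The 250 bases before the start of Hsd3b5 and of its neighbour Hsd3b2 are shown. These 2 genes lie side by side in one cluster on chromosome 3, with starts 79009 bases apart. Their values in these livers were unlike by the brighter of 2 detected Hsd3b2 probes. The dimmer one had a log2 difference of -0.54 in HFD-SD, the direction of Hsd3b5, so the contrast is uncertain. Sequences are from RefSeq, build GRCm38.p6, given on the gene's own strand, and capitals mark the runs of 8 bases or more that both hold in the same order.
Hsd3b5, chr3:98645535-98645784, minus strand: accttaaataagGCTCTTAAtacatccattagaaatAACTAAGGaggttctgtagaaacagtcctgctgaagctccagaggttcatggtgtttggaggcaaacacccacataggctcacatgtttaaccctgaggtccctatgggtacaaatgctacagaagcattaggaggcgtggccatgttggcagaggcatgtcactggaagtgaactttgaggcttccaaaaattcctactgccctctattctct
Hsd3b2, chr3:98724544-98724793, minus strand: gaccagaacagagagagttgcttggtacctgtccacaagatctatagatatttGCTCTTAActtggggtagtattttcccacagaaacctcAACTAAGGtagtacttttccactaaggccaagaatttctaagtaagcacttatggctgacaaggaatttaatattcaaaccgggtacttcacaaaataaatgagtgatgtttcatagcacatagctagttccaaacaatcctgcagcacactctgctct
Both runs, of 8 bases each, lay nearer the far end of each window than the start of the gene. How often unrelated windows share such runs was not counted. The window of Hsd3b3, also on chromosome 3 and not shown, holds a longer run in common with that of Hsd3b5. Both windows were searched on both strands for TTCNNNGAA (the core bound by STAT5, which acts downstream of growth hormone), AGAACA (a half-site of steroid receptors), CCAAT and TATAAA. The Hsd3b5 window held none of the 4. The Hsd3b2 window held AGAACA, 246 bases before the start. Over 32851 promoter entries of the same length, 7.02% held TTCNNNGAA, 16.1% AGAACA, 33.8% CCAAT and 12.4% TATAAA.

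The Hsd17b6 window is shown with its 2 matches to CCAAT in capitals, 1 on each strand, 68 and 129 bases before the first annotated start on chromosome 10.
Hsd17b6, chr10:128007612-128007861, minus strand: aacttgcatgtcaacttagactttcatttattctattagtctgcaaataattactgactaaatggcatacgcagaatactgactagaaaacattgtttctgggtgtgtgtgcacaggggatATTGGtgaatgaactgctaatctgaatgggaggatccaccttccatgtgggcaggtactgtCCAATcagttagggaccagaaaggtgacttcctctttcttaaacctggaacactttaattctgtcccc
A match is only a match of letters, and 33.8% of all promoter entries held this one. Of the other members, 1 match to TTCNNNGAA lay 21 bases before the start of Hsd3b7, and Hsd17b11, Hsd11b1, Srd5a1 and both promoter entries of Hsd3b3 each held 1 CCAAT.

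Hsd3b5 (chr3:98618636-98645534, probe ILMN_1234449) fell into separate levels among the HFD mice. Its intensity was 61, 1713, 65, 80 and 2177 in HFD replicates 1 to 5. The signal did not pass the scanner's detection limit in replicate 1 (detection value 0.0602) or replicate 3 (0.0689) and did so in replicate 4 (0.00251). So 3 HFD mice lay at or near background and the other 2 at levels inside the range of the other groups.

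With DSF on the high-fat diet no mouse was at background. Intensities were 1130, 1521, 1805 and 3720 in the HFDL mice and 1786, 2397, 1779 and 926 in the HFDH mice. All 8 DSF-fed HFD mice lay above the 3 low HFD mice, and their ranges took in both of the others.

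On the standard diet intensities were 7552, 4739, 1717, 2305 and 294 in SD replicates 1 to 5. They were 3074, 313, 4178, 6125 and 3698 in SDL replicates 7 to 11, and 801, 3247, 4493 and 1907 in the SDH mice. SD replicate 5 and SDL replicate 8 were the lowest of these 14 mice and still stood well above the 3 low HFD mice, the highest of which was at 80 and the lowest of the 24 other mice at 294.

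**Figure D1:**
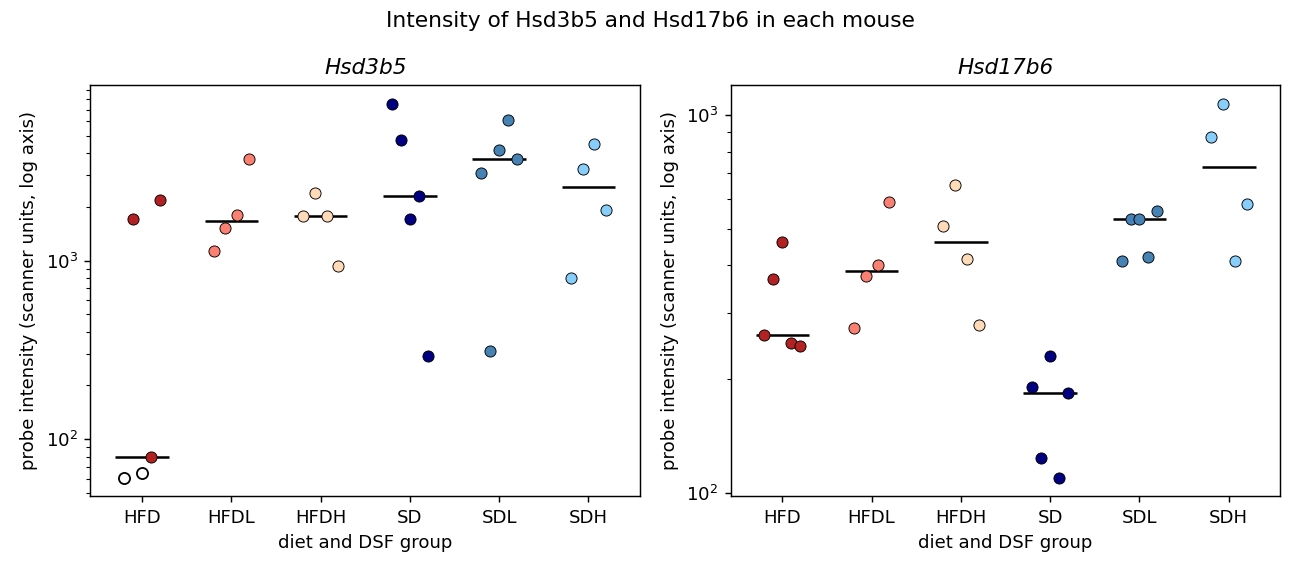
Intensity of Hsd3b5 and Hsd17b6 in each of 27 mice by group, on a log axis; the line is the group's median and hollow points did not pass detection. For Hsd3b5, 3 of 5 HFD mice sit between 61 and 80 and every other mouse at 294 or above, while for Hsd17b6 the SD mice sit lowest, between 110 and 230.

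On the log2 scale the Hsd3b5 level averaged 1.11 ± 2.62 in HFD mice (SD, n = 5), 4.11 ± 0.50 in HFDL mice (n = 4) and 3.85 ± 0.71 in HFDH mice (n = 4), against 3.96 ± 1.68 in SD mice (n = 5), 4.34 ± 1.71 in SDL mice (n = 5) and 4.20 ± 1.11 in SDH mice (n = 4). The HFD mean was the lowest of the 6, and the other 5 means lay closer together than the SD of any of those groups. The log2 difference was -2.85 (SE 0.95) for HFD-SD, 3.0 (SE 1.01) for HFDL-HFD and 2.74 (SE 1.01) for HFDH-HFD, and the last pair share the same 5 HFD mice. These values chose the gene and carry no test, and a mean over the HFD mice describes none of them. Hsd3b5 had the fourth largest SD of level of the 9972 genes over the 27 mice (rank 4, SD 1.90), and rank 4 again for its spread within groups (SD 1.64).

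On the standard diet DSF left Hsd3b5 without a detectable difference. The log2 difference was 0.38 (95% interval -1.57 to 2.34, limma adjusted p = 0.939) for SDL-SD and 0.24 (-1.83 to 2.31, limma adjusted p = 0.92) for SDH-SD, both against the same SD mice that took part in choosing the gene. Intervals this wide hold changes of several fold in either direction. Without SD replicate 5 the differences were -0.29 and -0.44, so leaving out 1 mouse turned both signs. With this one included, 2 alternative settings turned the sign in SDL-SD and 6 in SDH-SD.

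The genes whose levels were most like that of Hsd3b5 over the 27 mice were picked by Pearson's r, as a description only, since the mice share 6 groups and 3 of them form a cluster of their own. Susd4, a sushi-domain regulator of complement, was first with r = 0.89 (Spearman's rho 0.75). Next came Cyp7b1, which hydroxylates oxysterols and some steroids on the way to bile acids, with r = 0.85 (rho 0.61), and Ces3b, a liver carboxylesterase, with r = 0.83 (rho 0.63). C6 and C8b, components of the terminal complement complex, followed at 0.78 and 0.77, and Cyp2d9, a testosterone hydroxylase of male mouse liver, at 0.76.

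The first 3 of these genes are shown for each HFD mouse. They were picked by r over the same mice, so a split shared with Hsd3b5 follows from the choice and is no separate result. Susd4 had intensities of 104, 451, 104, 156 and 460 in HFD replicates 1 to 5. Cyp7b1 had 3016, 8252, 2794, 3750 and 10668 in the same mice, all well above background. Ces3b had 3977, 6867, 3237, 3915 and 5920. In each of the 3 genes replicates 1, 3 and 4 were the low mice and replicates 2 and 5 the high ones, the same split as for Hsd3b5.

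For these picked genes the likeness was present on each diet and weaker without the low cluster, in the same mice that picked them. For Susd4, r was 0.87 over the 13 mice on high-fat diets and 0.90 over the 14 mice on standard diets, and 0.73 over the 24 mice above the low cluster, a restriction chosen after the values were seen. For Cyp7b1 these values were 0.93, 0.80 and 0.58, and for Ces3b 0.93, 0.84 and 0.67. SD replicate 5 and SDL replicate 8, the low mice on the standard diets, had Susd4 intensities of 156 and 236, the lowest among those 14 mice.

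At the other end were Corin (r = -0.81, rho -0.57), a serine protease that activates a natriuretic peptide, Il1rn (r = -0.81, rho -0.61), the antagonist of the interleukin 1 receptor, and Bex4 (r = -0.79, rho -0.49). Corin was dim throughout, with intensities of 121, 67, 81, 89 and 52 in HFD replicates 1 to 5. Bex4 passed detection in 4 of 5 HFD mice (58 to 99) and 1 of 5 SD mice (53 to 67) and in 0 of the other 17, so it entered the tested genes mainly through the HFD mice. Over the 24 mice above the low cluster the 3 correlations were -0.58, -0.52 and -0.33.

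**Figure D2:**
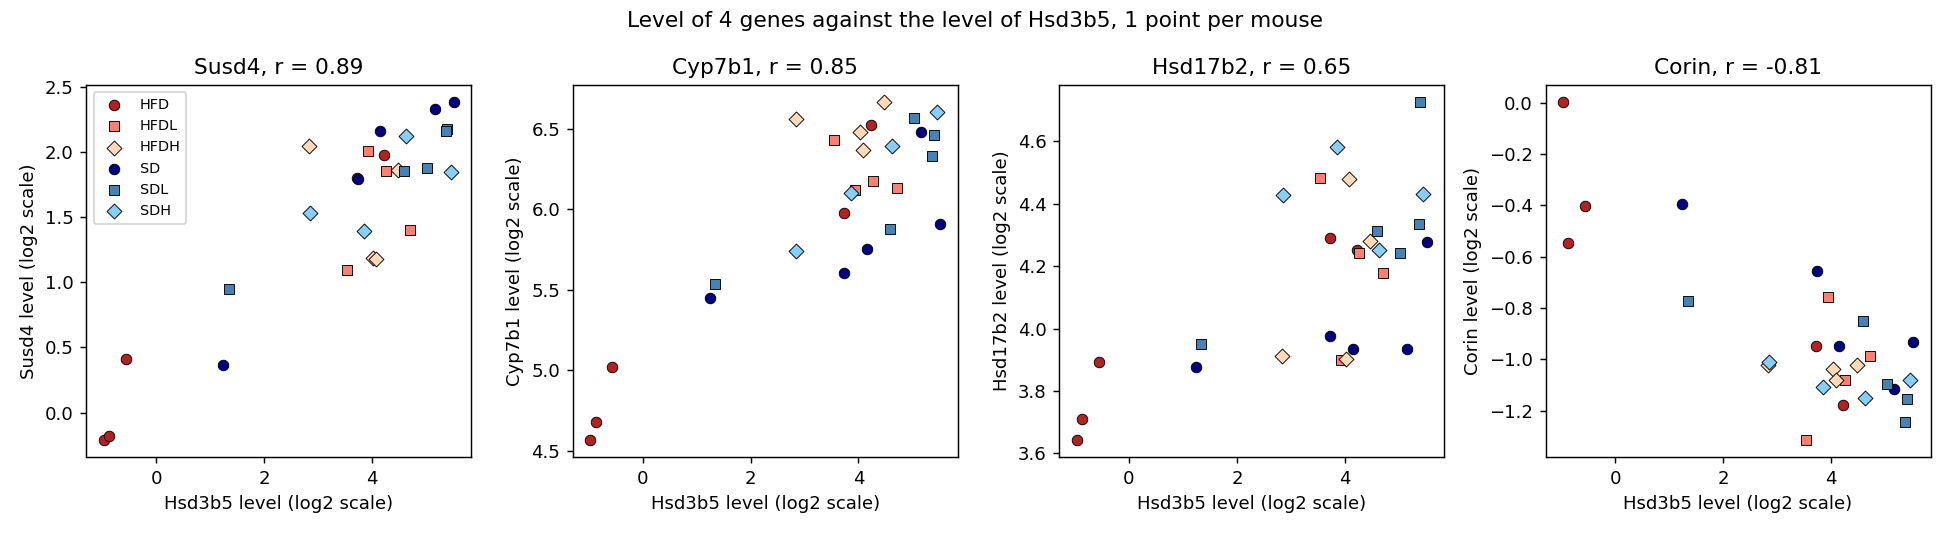
Level (log2) of Susd4, Cyp7b1, Hsd17b2 and Corin against the level of Hsd3b5, each point 1 of 27 mice and coloured by group. Susd4 (r = 0.89) and Cyp7b1 (r = 0.85) are high where Hsd3b5 is high, Hsd17b2 less so (r = 0.65), and Corin is low there (r = -0.81); the 3 HFD mice at the left end of each panel are the low cluster.

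Among the members, Hsd17b2 was the most like Hsd3b5, with r = 0.65 (rho 0.50), 0.73 on high-fat diets, 0.48 on standard diets and 0.42 over the 24 mice above the low cluster. For the other 5 members r with Hsd3b5 was between 0.03 and 0.11, Hsd17b6 included at 0.10.

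Hsd3b5 was then set beside other genes known from mouse liver for a bias to one sex, since it is itself one of the male-biased genes. Of 21 male-biased genes tested, 19 correlated positively with Hsd3b5 (median r 0.56, against 0.02 over all 9972 genes). Of 11 female-biased genes 10 correlated negatively (median r -0.48). Over all 9972 genes 5294 correlated positively and 4678 negatively. Susd4, Cyp7b1, C6 and Cyp2d9, named above for their likeness, are among the 21 and are no separate result. Over the 24 mice above the low cluster the same counts were 19 and 10, with medians of 0.38 and -0.37. Over all genes 4849 were then positive and 5123 negative. With Hsd17b6 the medians were 0.07 for the male-biased and 0.00195 for the female-biased genes. These genes were listed with earlier results of these data known, and the correlations share the mice.

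**Figure D3:**
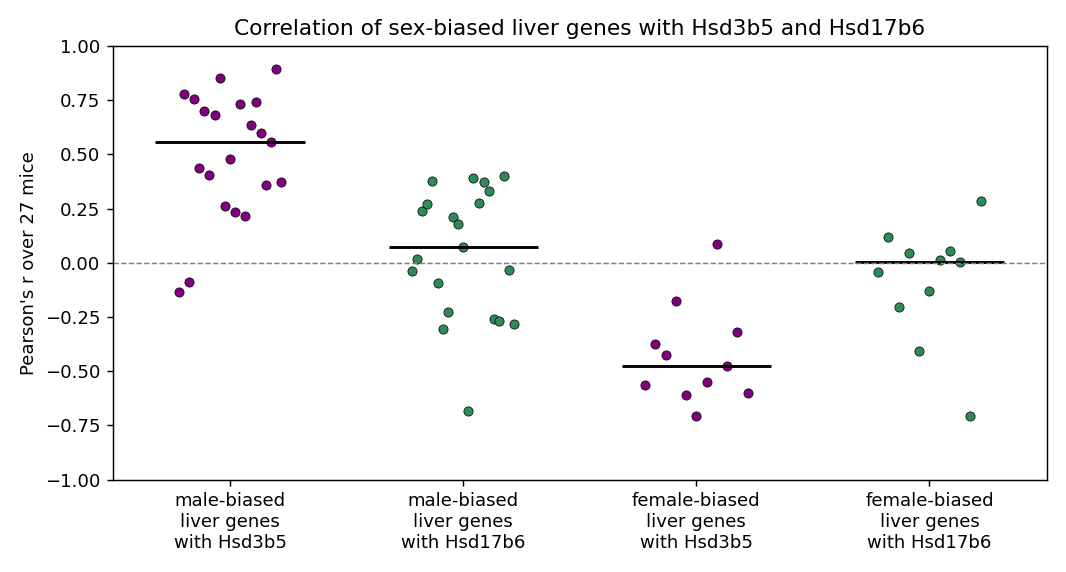
Pearson's r over 27 mice of 21 male-biased and 11 female-biased liver genes with Hsd3b5 and with Hsd17b6, each point 1 gene and the line the median. With Hsd3b5 the medians are 0.56 for male-biased and -0.48 for female-biased genes, and with Hsd17b6 they are 0.07 and 0.00195.

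In HFD-SD, 1 of the 21 male-biased genes passed the test (limma, adjusted p under 0.05), as did 0.933% of all genes, and 4 had a positive log2 difference, with a median of -0.44 against -0.03 over all genes. It was Cyp4a12b, a fatty acid omega-hydroxylase of male liver, which fell (log2 difference -3.24, limma adjusted p = 0.016). Its intensity was 75, 1174, 102, 98 and 1147 in HFD replicates 1 to 5, against 2420, 3648, 1227, 4493 and 2927 in SD replicates 1 to 5. After normalization HFD replicate 5 (level 3.30) overlapped SD replicate 3 (3.27), the other HFD mice were below all SD mice, and the low HFD mice were again replicates 1, 3 and 4.

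Of the 11 female-biased genes, 2 rose in HFD-SD, where 0.933% of all genes passed the limma test. Both are cytochromes P450 of the Cyp2b family that mouse liver carries mainly in females. Cyp2b9 had intensities of 5859, 2686, 5391, 5534 and 1580 in HFD mice, against 224, 440, 978, 146 and 54 in SD mice (log2 difference 4.05, limma adjusted p = 0.00526). Cyp2b13 had 1595, 412, 1287, 595 and 99 in HFD replicates 1 to 5, against 63, 69, 67, 45 and 49 in SD mice, of which 2 passed detection (limma adjusted p = 0.00231). For both, HFD replicates 2 and 5 were the 2 lowest HFD mice. The groups did not overlap, as was so in this direction for 1.19% of all genes. The list's median was 0.26.

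Cyp2b13 did not pass detection in any of the 4 HFDH mice and was at least 7.60-fold lower there than in HFD mice (limma adjusted p = 0.000904). In HFDH-HFD, where 4.38% of all genes passed, the male-biased Gstp1, a glutathione transferase, rose (0.99, limma adjusted p = 0.0481). Gna14, a G protein subunit, fell (-0.93, limma adjusted p = 0.0441). The log2 difference of the male-biased Cyp7b1 was 1.17, given with no test. Cyp7b1 was picked by r with Hsd3b5 over the same mice, and Hsd3b5 was chosen for its values in this comparison. The HFDH-HFD medians were 0.29 for the 21 male-biased and -0.37 for the 11 female-biased genes. The male-biased median shifted in sign or size under 1 other scaling and stayed close under 2. In HFDL-HFD, which shares the HFD mice, the medians were 0.28 and -0.14, and 0 of 21 male-biased genes passed the limma test (0.461% of all genes did), with 3 at an unadjusted p under 0.05, as were 10.6% of all genes.

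Ntrk2, a neurotrophin receptor listed as female-biased, fell with DSF on both diets, by 1.67 in HFDL-HFD, 2.00 in HFDH-HFD, 1.36 in SDL-SD and 2.02 in SDH-SD (log2, limma adjusted p 0.000336, 3.25e-06, 0.000726 and 5.85e-06). It fell also where Hsd3b5 had no detectable difference. On the standard diet the medians of the male-biased genes were 0.16 in SDL-SD and -0.02 in SDH-SD, and those of the female-biased genes -0.03 and -0.08. The median in SDL-SD was -0.02 when arrays were only centred on their median. In SDH-SD Mup20, a major urinary protein, rose (1.16, limma adjusted p = 0.0252) and Gna14 fell (-1.22, limma adjusted p = 0.00679).

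Between the diets at the same nominal dose, Mup2 rose in HFDL-SDL (0.63, limma adjusted p = 0.0496), as did Cyp2b9 (3.59, limma adjusted p = 0.0115), and Mup20 fell in HFDH-SDH (-1.15, limma adjusted p = 0.0353). Of 11 genes of growth hormone signalling and steroid receptors, 0 passed the limma test in the 5 main comparisons, with 0 in HFD-SD, 1 in HFDL-HFD, 4 in HFDH-HFD, 0 in SDL-SD and 2 in SDH-SD at an unadjusted p under 0.05, and medians from -0.04 to 0.14. Over all genes 0.933%, 0.461%, 4.38%, 0.632% and 7.07% passed the limma test in these 5 comparisons, in the same order. At an unadjusted p under 0.05 it was 14%, 10.6%, 20%, 10.7% and 23.5% of all genes. Igf1, the main liver product that growth hormone induces, rose in HFDH-SDH (0.61, limma adjusted p = 0.0315).

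Hsd17b6 (chr10:127990931-128007648, probe ILMN_1234552) was lowest in SD mice and passed detection in all 27 mice. By rising dose on the standard diet, its intensity was 191, 124, 230, 110 and 184 in SD replicates 1 to 5, 411, 532, 532, 421 and 558 in SDL replicates 7 to 11, and 873, 1071, 410 and 582 in SDH replicates 13, 14, 15 and 17. Every DSF-fed mouse on the standard diet was above every SD mouse, and the SDL and SDH mice overlapped.

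On the high-fat diet its intensity was 262, 368, 462, 249 and 245 in HFD replicates 1 to 5. It was 273, 374, 401 and 590 in HFDL replicates 7, 8, 9 and 11 and 509, 652, 416 and 278 in HFDH replicates 13, 14, 15 and 17. All HFD mice were above all SD mice, and the 3 high-fat groups overlapped. HFD replicates 1, 3 and 4, low in Hsd3b5, were at 262, 462 and 249 here, so the lowest and the highest HFD values of Hsd17b6 did not follow that split.

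Group levels of Hsd17b6 averaged 1.35 ± 0.42 in HFD, 1.81 ± 0.29 in HFDL and 1.89 ± 0.60 in HFDH mice, against 0.38 ± 0.44 in SD, 2.02 ± 0.31 in SDL and 2.54 ± 0.56 in SDH mice (log2, mean ± SD). Ordered by mean, SD came first, then HFD, HFDL, HFDH, SDL and SDH, and only SD and HFD were neighbours whose mice did not overlap. The values that chose the gene were a log2 difference of 1.64 (SE 0.26) in SDL-SD, 3.11-fold, and of 2.16 (SE 0.28) in SDH-SD, 4.47-fold, against the same SD mice. Groups did not overlap in this direction for 1.34% of all genes in SDL-SD and 2.94% in SDH-SD.

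The comparison of diets was not used to choose Hsd17b6, but it has the SD mice in common with those that were. That choice favours low values in the SD mice, so the difference below can be too large and its test too lenient. In HFD-SD the log2 difference was 0.98 (SE 0.26, 95% interval 0.44 to 1.51), 1.97-fold, and it missed the threshold (limma adjusted p = 0.0693), with 5 of 5 HFD mice above all SD mice, as was so for 1.19% of all genes. It passed the threshold without SD replicate 5 (limma adjusted p = 0.0451) or without HFDH replicate 17 (limma adjusted p = 0.0412). Array-quality weights over all 30 mice and neqc normalization also moved it past (adjusted p = 0.0129 and 0.0381). In the other 36 alternative fits it did not pass.

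DSF on the high-fat diet gave smaller differences in Hsd17b6. The log2 difference was 0.46 (95% interval -0.11 to 1.02, limma adjusted p = 0.582) in HFDL-HFD and 0.53 (-0.03 to 1.1, limma adjusted p = 0.281) in HFDH-HFD, against the same HFD mice. The difference between the diets in the response to DSF was -1.18 (SE 0.38) at the low dose and -1.63 (SE 0.39) at the high dose, given with no test since they contain the values that chose the gene. Between doses the log2 difference was 0.52 (SE 0.28) in SDH-SDL, given with no test since the values of both groups took part in choosing the gene. In HFDH-HFDL it was 0.08 (95% interval -0.52 to 0.67, limma adjusted p = 0.989).

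The genes most like Hsd17b6 over the 27 mice were Gsto1 (r = 0.84) and Gstm1 (0.80), which are glutathione transferases, Rrbp1 (0.82), a ribosome-binding protein of the endoplasmic reticulum, Piezo2 (0.81), a mechanosensitive channel, Crip2 (0.81) and Zfp385a (0.79). Within groups the likeness was lower. From deviations around the group means, r was 0.70 for Piezo2, 0.62 for Gsto1 and Rrbp1, 0.55 for Zfp385a, 0.47 for Crip2 and 0.31 for Gstm1. Piezo2 was dim throughout, with intensities of 52 to 86 in SD mice and 87 to 103 in HFDH mice. It passed detection in 3 of 5 SD, 4 of 5 HFD and 3 of 4 HFDL mice and in every mouse of the other groups. Lowest were Eif4e3 (r = -0.86), a cap-binding translation factor, Cdk5 (-0.82), a protein kinase, and Tsc22d1 (-0.81), with -0.68, -0.53 and -0.46 within groups.

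Gsto1, which uses glutathione on small molecules and dehydroascorbate, had 5251, 5682, 3444 and 4381 in the SDH mice, against 3923, 2956, 3642, 3366 and 3006 in SD mice. SDH replicate 15 had the lowest value of the SDH group for Gsto1 and for Hsd17b6 alike. None of these genes was among the 9 most extreme for Hsd3b5. Mean hepatocyte marker level also moved with Hsd17b6 over the mice (r = 0.52) and hardly with Hsd3b5 (r = 0.02). It ranged over 5.98 to 6.42 in HFD, 6.14 to 6.55 in HFDL and 6.14 to 6.61 in HFDH mice, against 5.65 to 5.86 in SD, 5.84 to 6.24 in SDL and 5.98 to 6.27 in SDH mice. Its part in the Hsd17b6 values was not tested.

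Markers of other liver cells also moved with the 2 genes. With Hsd17b6 the mean level of the 2 cholangiocyte markers tested (of 5 listed) had r = 0.68 over the 27 mice, and it ranged over -0.91 to -0.49 in SD, -0.55 to -0.17 in SDL and -0.30 to -0.0096 in SDH mice. Of these, Sox9, a transcription factor of bile duct cells, rose in SDH-SD (0.94, limma adjusted p = 0.00599) and Krt7, a keratin of the same cells, had a log2 difference of 0.05 (limma adjusted p = 0.821). The stellate and endothelial means ran the other way (r = -0.43 and -0.40), and the Kupffer cell mean had r = -0.05. With Hsd3b5 the Kupffer mean had r = -0.32, and 6 of 7 Kupffer markers correlated negatively (median r -0.40 over 27 mice and 0.02 over the 24 above the low cluster). It was 2.42, 1.75, 1.52, 1.85 and 0.98 in HFD replicates 1 to 5, so that replicates 1 and 4 of the low cluster had the highest values and replicate 3 was below replicate 2. HFD replicates 1 and 4 were also highest for the stellate (1.16 and 1.14) and endothelial markers (2.26 and 2.15). In HFD-SD 0 of the 7 Kupffer markers passed the limma test (0.933% of all genes), with 1 at an unadjusted p under 0.05 (14% of all genes) and a median of 0.27. The part of these cells in the values of either gene was not tested.

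The other 5 members had smaller differences than those that chose Hsd3b5 and Hsd17b6, a contrast that the choice itself sets up. In the counts of 6 below, Hsd17b6 is included in HFD-SD, HFDL-HFD and HFDH-HFD, and Hsd3b5 in SDL-SD and SDH-SD. Counting those not chosen on the comparison at hand, 0 of 6 members passed the limma test in HFD-SD, where 0.933% of all genes did. It was 0 of 6 in HFDL-HFD (0.461% of all genes), in HFDH-HFD (4.38%), in SDL-SD (0.632%) and in SDH-SD (7.07%). At an unadjusted p under 0.05 the counts were 2, 1, 1, 3 and 4 of 6, where 14%, 10.6%, 20%, 10.7% and 23.5% of all genes passed. In HFDL-SDL and HFDH-SDH it was 0 of 5 (3.04% and 6.83% of all genes), with 1 and 0 at an unadjusted p under 0.05 (20.1% and 24.3% of all genes).

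**Figure D4:**
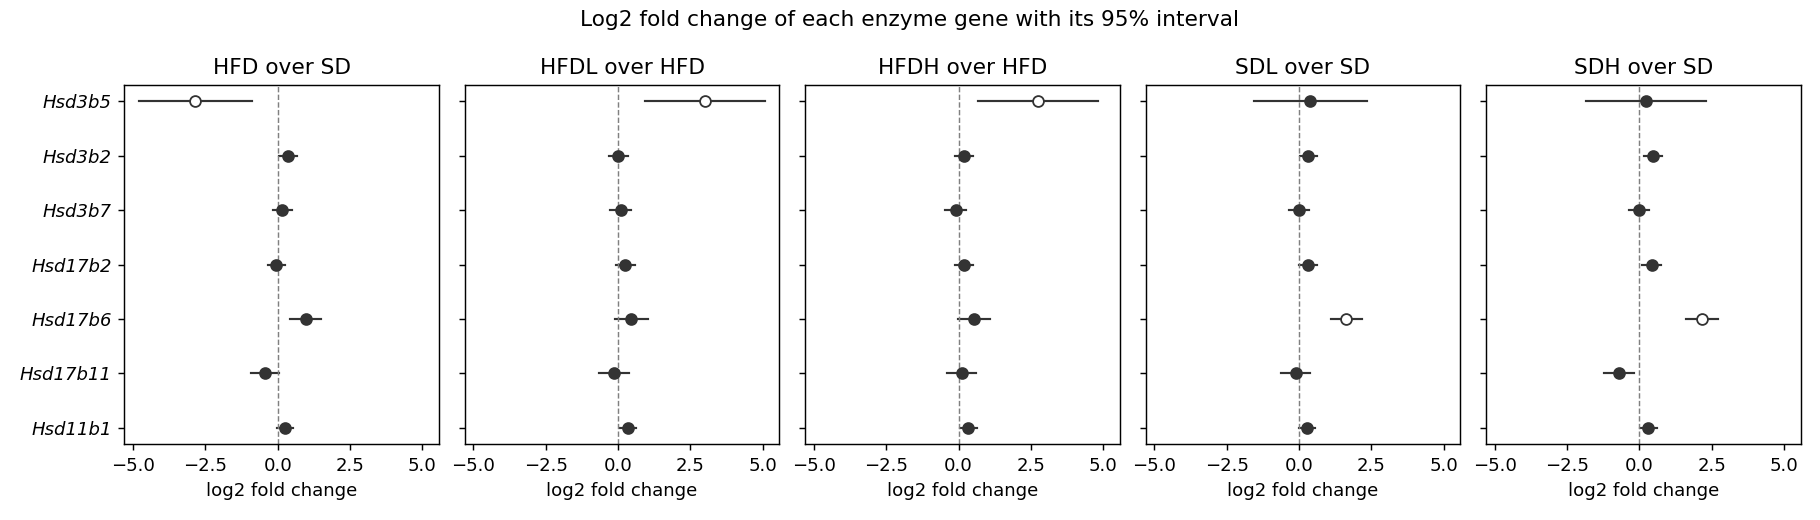
Log2 difference of the 7 members in 5 comparisons with 95% intervals from limma; hollow points are values that chose the gene. Hsd3b5 reaches -2.85 in HFD-SD and 3.0 in HFDL-HFD and Hsd17b6 2.16 in SDH-SD, while the other 5 members stay between -0.71 and 0.48.

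Hsd3b2, of the 3-beta family that turns pregnenolone-type steroids into their 3-keto forms, had the lowest adjusted p. Its levels were 3.72, 3.88, 3.70 and 3.45 in SDH replicates 13, 14, 15 and 17, against 3.47, 2.91, 3.14, 3.64 and 2.91 in SD replicates 1 to 5. The groups overlapped, and the log2 difference was 0.48 (SE 0.15, 95% interval 0.16 to 0.79, limma adjusted p = 0.0571). Without SD replicate 4 the adjusted p was 0.0231, and without SDH replicate 17 it was 0.0432.

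The probes of Hsd3b2 did not run together. Of 6 probes 2 were detected, and over the 27 mice their levels correlated at r = -0.08. The brighter one (ILMN_2898958) is the one above, with 0.36 in HFD-SD (limma adjusted p = 0.254), and the dimmer one (ILMN_1214838) gave -0.57 in SDH-SD and -0.54 in HFD-SD. The mean of both probes gave -0.05 and -0.09. The Hsd3b genes are close copies of each other, and whether either probe also takes up RNA of a neighbour was not tested, so the Hsd3b2 values are uncertain.

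Hsd3b7, which acts on the steroid ring early in bile acid synthesis, was bright, and its level differed little in the main setting (chr7:127800609-127803802). Its intensity was 12784 to 25326 over the 27 mice. In that setting its log2 differences in the 5 comparisons lay between -0.11 and 0.15, with 95% intervals inside -0.46 to 0.49 (lowest limma adjusted p 0.727). This rested on the scaling of the arrays. Before scaling, its intensity was 14382 to 16834 in HFDH mice, below the 17446 to 20268 of HFD mice, and with median centring it passed the limma test in HFDH-HFD. Its 2 probes correlated at r = 0.90.

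Hsd17b2 (chr8:117700982-117759030) oxidises estradiol and testosterone to less active forms. Its levels were 4.43, 4.25, 4.43 and 4.58 in SDH replicates 13, 14, 15 and 17, against 4.28, 3.94, 3.98, 3.93 and 3.88 in SD replicates 1 to 5, with SD replicate 1 above 1 of the SDH mice. The log2 difference was 0.42 (SE 0.16, limma adjusted p = 0.0974). In HFD replicates 1 to 5 its levels were 3.64, 4.29, 3.71, 3.89 and 4.25, so replicates 1, 3 and 4 were low as for Hsd3b5, over a much narrower range.

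Hsd17b11, a short-chain dehydrogenase found on lipid droplets (chr5:103989765-104021796), had a negative difference in SDH-SD. Levels were 2.26, 3.05, 2.04 and 1.51 in SDH replicates 13, 14, 15 and 17, against 2.74, 3.02, 2.70, 3.77 and 2.41 in SD replicates 1 to 5. SDH replicate 14 overlapped the SD mice and SDH replicate 17, the mouse with pancreatic markers, was the lowest. The log2 difference was -0.71 (SE 0.25, 95% interval -1.23 to -0.20, limma adjusted p = 0.0804). It was -0.84 without SD replicate 5 (limma adjusted p = 0.0405) and -0.99 without SDH replicate 14 (limma adjusted p = 0.0167). Without both mice richest in pancreatic markers, SD replicate 2 and SDH replicate 17, it was -0.46 (limma adjusted p = 0.335), Hsd17b6 in SDH-SD was 2.18, and the count of members passing remained 0 in each comparison. The 3 probes of Hsd17b11 correlated at 0.79 to 0.91. In HFD-SD the log2 difference of Hsd17b11 was -0.43 (limma adjusted p = 0.422), and the difference between the diets in the response to the high dose was 0.82 (95% interval 0.09 to 1.54, limma adjusted p = 0.332).

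Hsd11b1, which in mice regenerates corticosterone from its inactive 11-keto form (chr1:193221640-193264045), had small positive differences in the main setting. Levels were 7.91, 7.87, 7.77 and 7.53 in HFDH replicates 13, 14, 15 and 17, against 7.38, 7.46, 7.69, 7.39 and 7.21 in HFD replicates 1 to 5, with overlap in 1 mouse of each group. The log2 difference was 0.34 in HFDL-HFD (limma adjusted p = 0.338), 0.34 in HFDH-HFD (limma adjusted p = 0.154) and 0.26 in HFD-SD (limma adjusted p = 0.371). Its sign did not hold across scalings, with -0.08 in HFD-SD after quantile normalization and -0.05 in HFDH-HFD after median centring. The 9 hepatocyte markers tested had medians of 0.39 in HFD-SD and 0.29 in HFDH-HFD in the main setting. Its 3 bright probes correlated at 0.93 to 0.97 and a dim probe not at all with them (r -0.17 to -0.08).

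**Figure D5:**
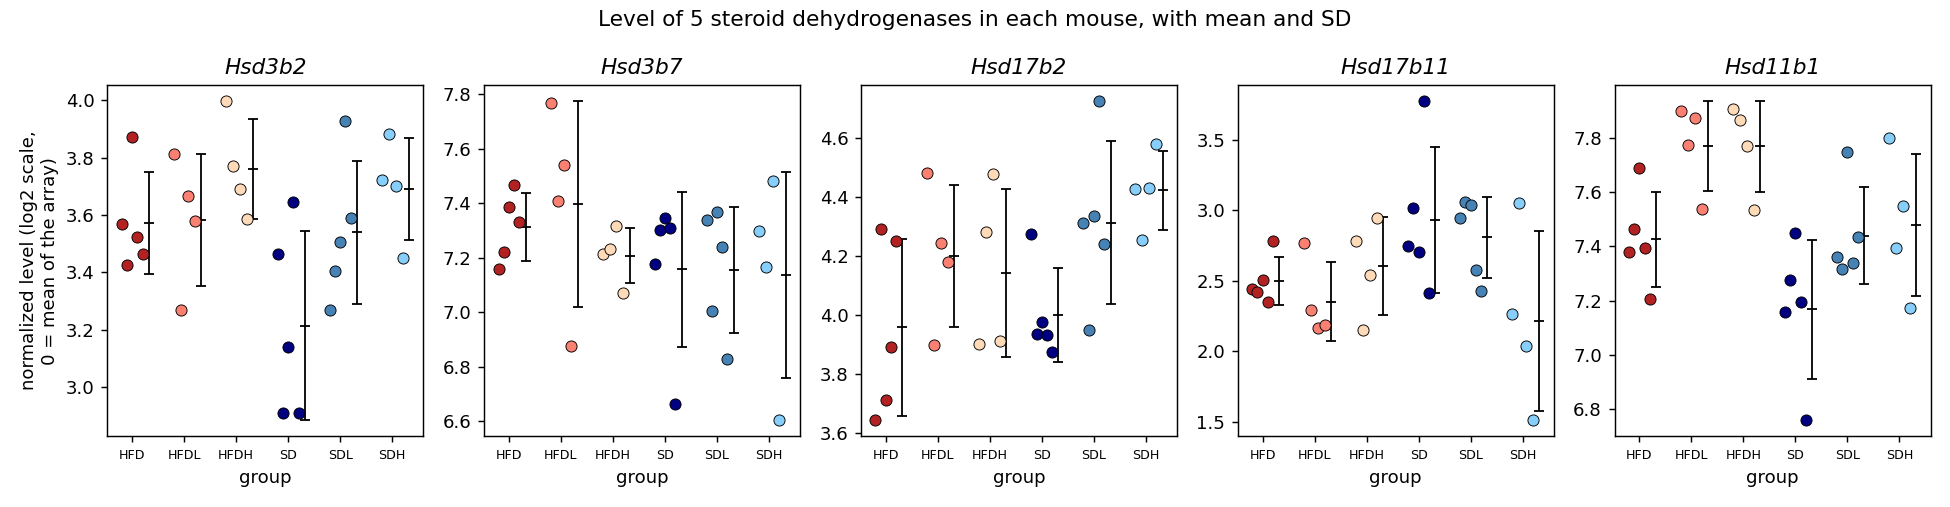
Level (log2) of Hsd3b2, Hsd3b7, Hsd17b2, Hsd17b11 and Hsd11b1 in each of 27 mice by group, with mean ± SD. The groups overlap in nearly all pairs, and the SDH mice run from 1.51 to 3.05 for Hsd17b11, against 2.41 to 3.77 in SD mice.

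Among 15 tested genes of the same enzyme families outside the members, 0 passed the limma test in the 5 main comparisons, with medians from -0.02 to 0.17. Over all genes 0.933% passed in HFD-SD, 0.461% in HFDL-HFD, 4.38% in HFDH-HFD, 0.632% in SDL-SD and 7.07% in SDH-SD. At an unadjusted p under 0.05 there were 4 in HFD-SD, 3 in HFDL-HFD, 6 in HFDH-HFD, 1 in SDL-SD and 3 in SDH-SD of the 15, against 14%, 10.6%, 20%, 10.7% and 23.5% of all genes. Rdh7, a retinol dehydrogenase relative of Hsd17b6, rose in HFDH-SDH (0.66, limma adjusted p = 0.0185). Of 12 genes for other steps of steroid breakdown, Cyp3a11, a broad hydroxylase of steroids and drugs, rose in HFD-SD (1.27, limma adjusted p = 0.000857), in HFDL-SDL (1.1, limma adjusted p = 0.00615) and in HFDH-SDH (1.27, limma adjusted p = 0.0014). Cyp7b1 is also on this list, and its HFDH-HFD difference is given above with no test. Akr1c19, an aldo-keto reductase, rose in SDH-SD (0.96, limma adjusted p = 0.0358). The medians of this list lay between 0.04 and 0.19 in the 5 main comparisons.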

How the data were processed

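Liver RNA of 30 mice was measured on 32 Illumina MouseRef-8 v2 arrays. The authors deposited probe intensity values from GenomeStudio 2011.1 on a linear scale (27 to 37030) and, beside each, its detection p-value. Another table deposited by the authors has a score per probe, its Z-normalized log intensity. Its replicate numbers in the DSF groups could not be matched to the intensity columns by label, so it served only as an alternative. Of 25697 probes, 23978 carried 1 gene symbol and 1719 none.

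Intensities were converted to log2, centred and divided by the SD of each array, and multiplied by the mean array SD (1.89). SD replicate 1 and HFD replicate 2 had 2 arrays, which were averaged (r = 0.997 and 0.996). Arrays with under 35% of probes detected were left out. A probe had to be detected (p under 0.05) in 5 mice or more, and each gene was represented by its brightest such probe on average. All 9972 genes were fitted with limma 3.58.1 (R 4.3.3) with a mean for each of 6 groups, eBayes and the Benjamini-Hochberg adjustment taken across all of them, at an adjusted p under 0.05 (25.2 degrees of freedom). The fit was tested on simulated data. The members and gene lists were chosen with earlier results of these data known. Outside the members, named genes are the 6 highest and 3 lowest by r with Hsd3b5 and Hsd17b6, called list genes, up to 4 in each direction per list and comparison, and markers. Alternatives were other scalings, filters, probe rules and sets of mice, leaving out each mouse, and the methods' criteria.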

Additional observations from a re-analysis of the deposited data

Results flagged for a closer look

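In 4 of 42 sets of mice examined (7 members in 6 groups), 1 mouse stood farther from its group than Dixon's limit for 1 in 20, which chance alone passes in about 1 in 20 sets.

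Hsd3b5 in SDL replicate 8 had a level of 1.34, against 4.59 to 5.39 in the other 4 SDL mice. Hsd17b2 in SD replicate 1 was at 4.28, against 3.88 to 3.98 in the other SD mice. Hsd3b7 in SD replicate 5, the mouse with the lowest Hsd3b5 of its group, was at 6.66, against 7.18 to 7.34 in the others. Hsd11b1 in SDL replicate 9 was at 7.75, against 7.32 to 7.43 in the others.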

How the results depend on the processing

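Counts of members passing the test were 0 in all 7 comparisons and changed to 1 under some alternatives. With all 30 mice and array-quality weights the count was 1 in HFD-SD, HFDL-HFD, HFDH-HFD, SDH-SD and HFDL-SDL. With neqc it was 1 in HFD-SD (Hsd17b6), with quantile normalization or the first array of each mouse 1 in SDH-SD (Hsd3b2). With median centring it was 1 in HFDH-HFD (Hsd3b7), SDH-SD (Hsd17b11) and HFDH-SDH. By the criteria of the study's methods it was 1 in HFD-SD (Hsd17b6), HFDL-HFD (Hsd11b1) and SDH-SD (Hsd3b2). Leaving out 1 mouse gave 0 to 1 in HFD-SD (1 without SD replicate 5 or HFDH replicate 17) and 0 to 1 in SDH-SD (1 without SD replicate 4 or 5, SDL replicate 10, or SDH replicate 14 or 17), and 0 in the other 5.

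Some differences of members turned sign. Hsd3b5 in SDL-SD was -0.033 with weights and -0.29 to 1.14 when 1 mouse was left out, lowest without SD replicate 5. In SDH-SD it was -0.61 with 30 mice, -0.11 with weights, -0.63 with the authors' scores and -0.44 to 0.68 when 1 mouse was left out, with -0.44 and -0.18 without SD replicate 5 and SDH replicate 15. Hsd17b6 in SDH-SDL was -0.024 with 30 mice and -0.057 with the scores, and in SDH-SD it was 1.53 and 1.49. Hsd3b2 and Hsd17b2 in SDH-SD were -0.88 and -0.91 with 30 mice and -0.86 and -0.87 with the scores, all of which include the SDH mouse with 6.56% of probes detected. With the mean of its probes, Hsd3b2 was -0.050 in SDH-SD and -0.092 in HFD-SD. Hsd11b1 was -0.077 with quantile normalization, -0.077 with neqc and -0.067 with median centring in HFD-SD, and -0.054 with median centring in HFDH-HFD. Apart from these settings the causes were not tested. The descriptions of Hsd3b5 in HFD-SD, HFDL-HFD and HFDH-HFD and of Hsd17b6 in SDL-SD kept their direction under all 40 alternatives run.

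Under median centring the median of all genes was -0.12 in HFD-SD, -0.13 in HFDH-HFD, -0.11 in SDH-SD, -0.17 in HFDL-SDL and -0.14 in HFDH-SDH, against -0.03, -0.0054, -0.04, -0.03 and 0.01 in the main setting, and the calls over all genes then numbered 159, 1025, 1090, 1561 and 1302, of which 26, 36, 168, 45 and 62 were higher, against 93, 437, 705, 303 and 681 in the main setting, of which 49, 144, 280, 89 and 259 were higher. With 30 mice the calls were 1 in HFD-SD, 6 in HFDL-HFD, 19 in HFDH-HFD, 2 in SDL-SD, 7 in SDH-SD, 0 in HFDL-SDL and 8 in HFDH-SDH, and with weights 762, 420, 1161, 169, 1187, 1821 and 1126. Fitting only the mice of the pair gave 16 in HFD-SD, 31 in HFDL-HFD, 312 in HFDH-HFD, 18 in SDL-SD, 115 in SDH-SD and 49 in HFDH-SDH. In HFDL-SDL it gave 345, above the 303 of the main setting. Leaving out 1 mouse gave 21 (HFD replicate 4) to 244 (SD replicate 5) in HFD-SD, 20 (HFD replicate 4) to 63 (SD replicate 5) in HFDL-HFD, 167 (HFDH replicate 13) to 576 (HFDH replicate 17) in HFDH-HFD, 29 (SDL replicate 9) to 103 (SD replicate 5) in SDL-SD, 337 (SD replicate 2) to 854 (HFDH replicate 17) in SDH-SD, 68 (HFDL replicate 7) to 672 (HFDL replicate 11) in HFDL-SDL and 198 (HFDH replicate 15) to 835 (SD replicate 5) in HFDH-SDH.

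Replicate numbers did not pair the mice. Pairs of one number had a median correlation of -0.0026 between their deviations, against 0.0111 for other pairs, and 9 of 30 mice correlated best with a mouse of their own number. In the authors' scores every group holds every replicate number, so a block for the number can change the error of a group difference but not the difference. That the values with this block were the same as without it is therefore fixed by the design and says nothing on pairing. They were -0.63 for Hsd3b5 in SDH-SD, -0.057 for Hsd17b6 in SDH-SDL, and -0.86 for Hsd3b2 and -0.87 for Hsd17b2 in SDH-SD. In HFDH-HFD 15 genes passed with and without the block.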

Other observations

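The 3 mice with low-signal arrays had Hsd3b5 intensities of 220 in HFDL replicate 10, 130 in HFDH replicate 16 and 36 in SDH replicate 16, and Hsd17b6 intensities of 140, 270 and 36 in the same mice. Neither gene passed detection in SDH replicate 16 (detection values 0.545 and 0.561). These values were not compared with those of the other mice.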
